A study of Homo sapiens with 12 samples.

Results

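The 35 genes described here are 29 nuclear receptors and 6 of their coregulators, followed in HepG2 cells after a brief or longer exposure to a herbicide. They were chosen by name, as the rows of the deposited count table whose symbol was on the list, and all 35 were found among 60612 gene rows. HepG2 is an established line from a human liver cancer, and every library came from this 1 line. The exposed groups had received the phenoxy herbicide 2,4-D at 0.001 µM, and their RNA was taken after 10, 30 or 360 min, and the 0 min group carried the label untreated. Each of the 4 groups held 3 biological replicates. All cells, the 0 min group included, were detached with trypsin and EDTA, and polyadenylated RNA was captured on oligo-dT beads after a Trizol extraction. Because no untreated cells from the later times were among the libraries, exposure and elapsed time cannot be told apart.

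Nuclear receptors are transcription factors that carry a zinc-finger DNA-binding domain and, in most cases, a pocket for a small lipophilic ligand. Many of them bind DNA as heterodimers with a retinoid X receptor (RXR), on repeats of the half-site AGGTCA. Ligand changes the surface that coregulators dock on: without it corepressors such as NCOR1 recruit histone deacetylases, and with it coactivators of the p160 family and the Mediator subunit MED1 take their place. In the liver these receptors control drug and bile acid handling, lipid synthesis and the response to steroid and thyroid hormones.

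Library totals ran from 29.8 to 83.5 in units of 1000000 counts, and 3 counts, the limit that a count of 0 allows, corresponded to 0.0359 to 0.101 CPM (counts per 1000000 counts, scaled between libraries by the TMM method). These limits cover counting error only. The 9 hepatocyte genes checked (ALB, AFP, APOA1, APOB, TTR, SERPINA1, TF, FGB and HNF4A) were present in all 12 libraries, with summed levels of 28446 to 30868 CPM at 0 min and 31806 to 32931 CPM at 360 min. Of 7 markers of other cells, PTPRC had no count in any library, and CDH5, COL1A1, COL3A1 and DES did not exceed 0.33 CPM. PECAM1 reached 1.75 CPM. CD68, at 48.6 to 64.6 CPM, made up nearly all of their sum, which ran from 50 to 57.4 CPM at 0 min and from 53.2 to 57.6 CPM at 360 min. In bulk RNA, fewer cells of a type and less RNA per cell cannot be told apart.

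Of the 35 genes, 30 passed the filter on low counts (edgeR's filterByExpr by group) and 5 were too low to measure. ESRRG, an orphan oestrogen-related receptor, and PGR, the progesterone receptor, had 0 counts in all 12 libraries. RXRG, the third retinoid X receptor, had 2 counts in 1 library of the 360 min group and 0 in the other 11. ESR1, oestrogen receptor alpha, had 0 to 9 counts per library and was at 0 in 5 of them. ESR2, oestrogen receptor beta, had 2 to 15 counts per library.

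To compare levels between genes, counts were divided by exon length and expressed as TPM, a share of all transcripts scaled to the same total in each library. The length took in every annotated exon of a gene, so the order between genes depends on that choice. At 0 min the orphan receptor NR2F6, a COUP-TF relative, was the most abundant of the 30, with 154 ± 7.76 TPM (SD, n = 3), followed by ESRRA, an orphan receptor of mitochondrial genes, with 86 ± 3.94 TPM. The coregulators came next: NCOA3 had 52.5 ± 2.96 TPM, NCOR1 44.5 ± 4.68 TPM and MED1 40.6 ± 3.57 TPM. The ranges of the latter pair overlapped, at 39.4 to 48.6 and 36.5 to 43.2 TPM, whereas the lowest NCOA3 library, at 49.1 TPM, lay above both. Of the heterodimer partners, RXRB had 34.8 ± 1.3 TPM and RXRA 26.8 ± 1.42 TPM. In CPM, which is not divided by length, RXRA was the higher of the pair at 0 min, with 81 against 37.2 CPM. NR1H3 (20.7 TPM), NR2C1 (20.1 TPM), PPARG (19.1 TPM), NR2F1 (18.2 TPM) and NR1I2 (18.1 TPM) followed, each overlapping in range with the next, while NR1H3 (20 to 21.1 TPM) and NR1I2 (17.4 to 19.6 TPM) did not overlap. At the low end lay NR1I3 (1.36 TPM), RARG (1.1 TPM), NR3C2 (0.756 TPM), NR5A2 (0.202 TPM) and RARB (0.195 TPM). The plot of levels per length shows the whole order.

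**Figure D1:**
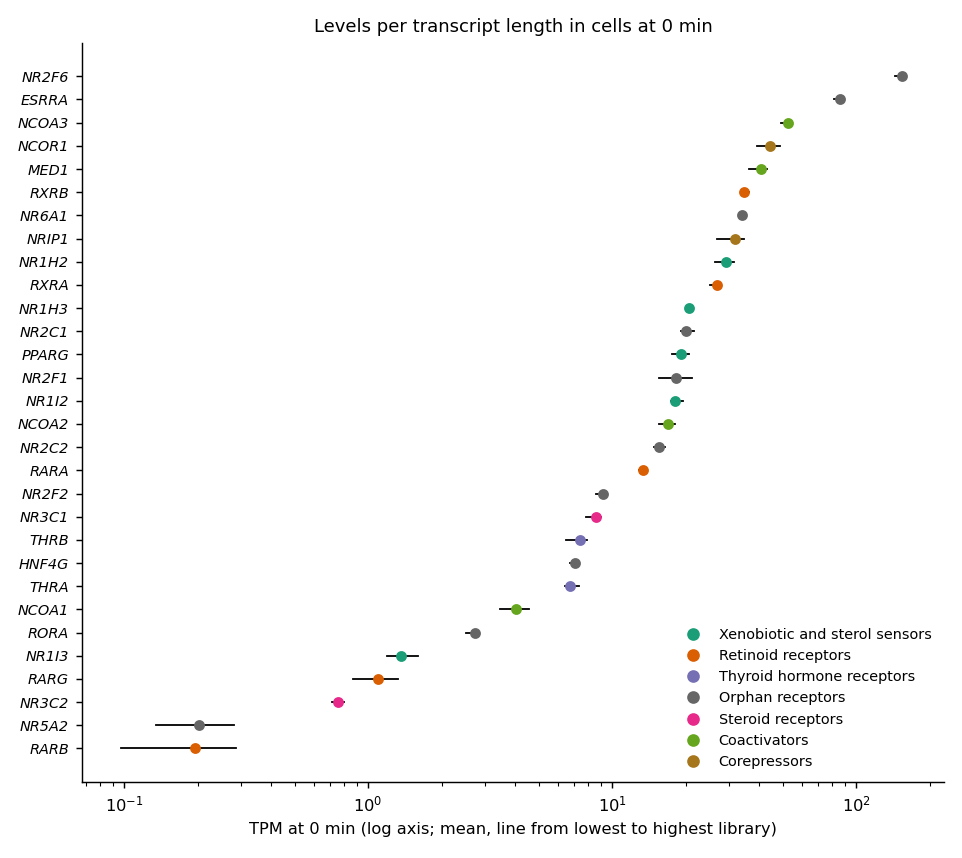
Levels of the 30 measured genes at 0 min in TPM on a log axis, as the mean of 3 libraries with a line from the lowest to the highest, coloured by role. NR2F6 and ESRRA lead at 154 and 86 TPM, and NR5A2 and RARB close the order at 0.202 and 0.195 TPM.

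The first 10 and 30 min of exposure left no measurable gene of the list called. Genes count as called here where edgeR's quasi-likelihood test gave an adjusted p (Benjamini-Hochberg) under 0.05, fitted to all 12 libraries and 17779 genes. At 10 min, 0 of 30 were called, where 0.0169% of all tested genes were. The 3 libraries of 10 min had the lowest totals of the 12, at 29.8 to 31.5 in units of 1000000 counts. Log2 fold changes ran from -0.19 (NR2F2) to 0.26 (NR1I3), the smallest adjusted p was 0.3, and 4 of 30 genes had an unadjusted p under 0.05. In 6 of 30, the 3 exposed libraries lay wholly above or below the 3 libraries of 0 min, a share of 20% where 15.5% of all genes showed this. PPARG was one of them, at 25 to 29.6 CPM against 22.9 to 24.9 CPM (log2 fold change 0.19 ± 0.07 SE, edgeR adjusted p = 0.33).

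At 30 min, 0 of 30 were called again, where 0.765% of all genes were. Log2 fold changes ran from -0.33 (RORA) to 0.51 (HNF4G), the smallest adjusted p was 0.31, and 4 of 30 had an unadjusted p under 0.05. In 5 of 30 the libraries of the 2 times did not overlap (16.7%, against 14.5% of all genes). DESeq2, run as a second count test, also called 0 of 30 at either time. The highest and lowest values at 30 min belonged to genes in which single libraries stood apart, described further on.

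By 360 min genes of the list had moved in both directions. Of the 5 receptors that sense xenobiotics, sterols and fatty acids, 3 fell (PPARG, NR1I2 and NR1H3), and so did RXRA, the thyroid hormone receptor THRA and the orphan receptor NR2F6, while the coactivators NCOA3 and MED1 and the orphan receptor NR2C2 rose. Against 0 min, 9 of 30 genes were called, 3 higher and 6 lower (30%). Over all tested genes 18.1% were called, 8.89% higher and 9.19% lower. In 12 of 30 the libraries did not overlap (40%, against 35.6% of all genes). The changes were small: the median size among the 9 was 0.22 on the log2 scale, against 0.26 over all called genes, and the median over all 30 was -0.03 against 0.00 for all tested genes. The plot of log2 fold changes sets the 3 times side by side. These 3 comparisons share the 0 min libraries.

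**Figure D2:**
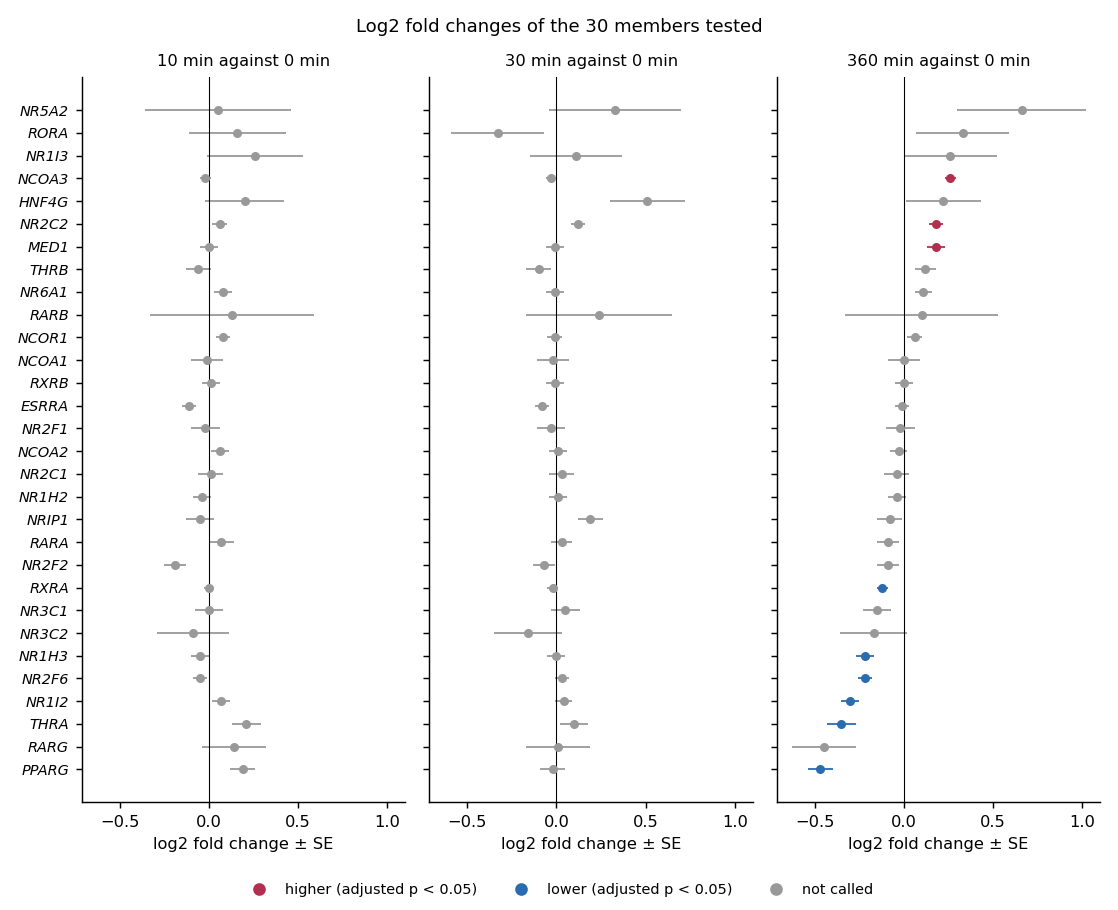
Log2 fold changes with SE for the 30 measured genes at 10, 30 and 360 min against 0 min, red and blue where the edgeR test called a gene higher or lower and grey where it did not. No gene is coloured at 10 or 30 min, and 9 are at 360 min, from PPARG at -0.47 to NCOA3 at 0.26.

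The xenobiotic and sterol sensors numbered 5, all measured. At 360 min 3 of them were called, all lower. Over all tested genes 18.1% were called, with 8.89% higher and 9.19% lower. The counts by role, here and below, stand beside these shares. Each role holds few genes, and no role was tested against all genes. The largest fall was that of PPARG (ENSG00000132170, chr3:12287368-12434356, plus strand, GRCh38), the fatty acid receptor best known from adipocytes. Its 3 libraries held 22.9, 24.9 and 23 CPM at 0 min, 26.6, 25 and 29.6 CPM at 10 min, 24.4, 22.2 and 23.3 CPM at 30 min, and 17.7, 17.2 and 16.2 CPM at 360 min. All 3 libraries of 360 min lay below the other 9. Its mean fell from 23.6 to 17 CPM, by 0.47 ± 0.07 (SE) on the log2 scale (edgeR adjusted p = 0.00038).

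The pregnane X receptor NR1I2 (ENSG00000144852, chr3:119780484-119818485, plus strand), which induces drug-metabolising enzymes, had 26.9, 28.1 and 24.7 CPM at 0 min, 28.3, 29.3 and 26.3 CPM at 10 min, 27.4, 27.1 and 27.4 CPM at 30 min, and 21.2, 22.1 and 21.7 CPM at 360 min. It was steady over the first 3 times and below all of them at the last. Its mean fell by 0.30 ± 0.05 on the log2 scale (edgeR adjusted p = 0.0021). Its partner in drug sensing, the constitutive androstane receptor NR1I3, was scarce, with 1.53, 1.13 and 1.05 CPM at 0 min, 1.74, 1.35 and 1.32 CPM at 10 min, 1.17, 1.62 and 1.15 CPM at 30 min, and 0.933, 2.04 and 1.5 CPM at 360 min. Its groups overlapped throughout (log2 fold change 0.26 ± 0.26, edgeR adjusted p = 0.58). Exons of NR1I3 share 661 bases, 20% of their length, with the opposite-strand gene TOMM40L, which rose at 360 min (0.28 ± 0.04, edgeR adjusted p = 0.00058). Whether strand was used in counting is not given in the sources used here, and the part of that gene's reads in the NR1I3 values was not tested.

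Of the 2 liver X receptors, which sense oxysterols and switch on cholesterol export and fatty acid synthesis, 1 was called. NR1H3 (LXR alpha, ENSG00000025434, chr11:47248300-47269032, plus strand) had 26.1, 25.3 and 25.3 CPM at 0 min, 24, 25.1 and 24.8 CPM at 10 min, 25.2, 25.4 and 25.9 CPM at 30 min, and 23.3, 21.2 and 21.5 CPM at 360 min. Only the libraries of 360 min were below 24 CPM, and the mean fell by 0.22 ± 0.05 on the log2 scale (edgeR adjusted p = 0.0055). NR1H2 (LXR beta) had 28.6, 29.6 and 31.5 CPM at 0 min, 29.1, 28 and 30.4 CPM at 10 min, 30.4, 31.3 and 28.5 CPM at 30 min, and 29.4, 28.5 and 29.3 CPM at 360 min. Its log2 fold change was -0.04 ± 0.05 (edgeR adjusted p = 0.66), and over all 12 libraries it was the second steadiest of the list, with a coefficient of variation of 3.79%. Exons of NR1H3 share 189 bases (4.17%) with ACP2 on the opposite strand, whose log2 fold change was -0.07 (edgeR adjusted p = 0.27).

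PPARG gave the largest fall and NCOA3 the largest rise among the called genes. The promoters of both are shown with that of NR1H3, a lower gene of the same NR1 subfamily as PPARG, to place the receptor half-site. NR1I2 and THRA, of that subfamily too, fell further than NR1H3 (log2 fold changes -0.30 and -0.35, against -0.22) and are not shown. Among genes called at 360 against 0 min, only PPARG and NR1H3 had a window with the half-site. Each is the 250 bases before a RefSeq transcription start (GRCh38.p14), 5′ to 3′ on the gene's plus strand, with capitals for the half-site AGGTCA or its reverse complement TGACCT.
PPARG chr3:12287118-12287367: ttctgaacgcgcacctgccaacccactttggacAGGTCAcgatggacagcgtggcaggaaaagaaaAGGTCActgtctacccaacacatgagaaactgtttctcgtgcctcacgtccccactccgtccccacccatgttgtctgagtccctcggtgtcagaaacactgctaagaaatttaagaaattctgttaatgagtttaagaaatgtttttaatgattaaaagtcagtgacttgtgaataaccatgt
NR1H3 chr11:47248050-47248299: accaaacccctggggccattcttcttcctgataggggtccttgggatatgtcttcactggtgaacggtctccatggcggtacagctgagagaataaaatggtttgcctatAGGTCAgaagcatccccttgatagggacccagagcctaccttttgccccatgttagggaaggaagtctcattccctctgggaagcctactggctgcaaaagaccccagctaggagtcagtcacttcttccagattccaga
NCOA3 chr20:47501637-47501886: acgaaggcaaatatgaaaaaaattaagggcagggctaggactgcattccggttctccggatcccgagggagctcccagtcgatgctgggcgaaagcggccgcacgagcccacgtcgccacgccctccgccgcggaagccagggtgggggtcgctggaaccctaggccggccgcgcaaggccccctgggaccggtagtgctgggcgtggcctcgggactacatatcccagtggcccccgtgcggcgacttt
The PPARG window held the half-site at positions -217 and -184 from the start, the NR1H3 window held it at -140, and the NCOA3 window did not hold it. The windows shown for PPARG and NR1H3 are those with the most matches and were chosen after the search. In all, 3 of 6 PPARG windows held it, of which 2 overlap and share 1 match. The count was 1 of 4 for NR1H3, 0 of 2 for NR1I2, 0 of 1 for THRA and 0 of 3 for NCOA1. No window of RXRA, MED1 or NR2C2 held it. Of the genes that fell, PPARG and NR1H3 thus had a window with it, and NR1I2, THRA and RXRA lacked it. NR2F6, which also fell, had no window. The genes that rose, NCOA3, MED1 and NR2C2, lacked it. Whether the half-site goes with the direction of change was not tested. Of 84 windows for 32 of the 35 genes, 12 held the half-site (14.3%), against 4242 of all 35116 windows (12.1%). A match in these letters is a description of the sequence only, and binding was not measured.

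**Figure D3:**
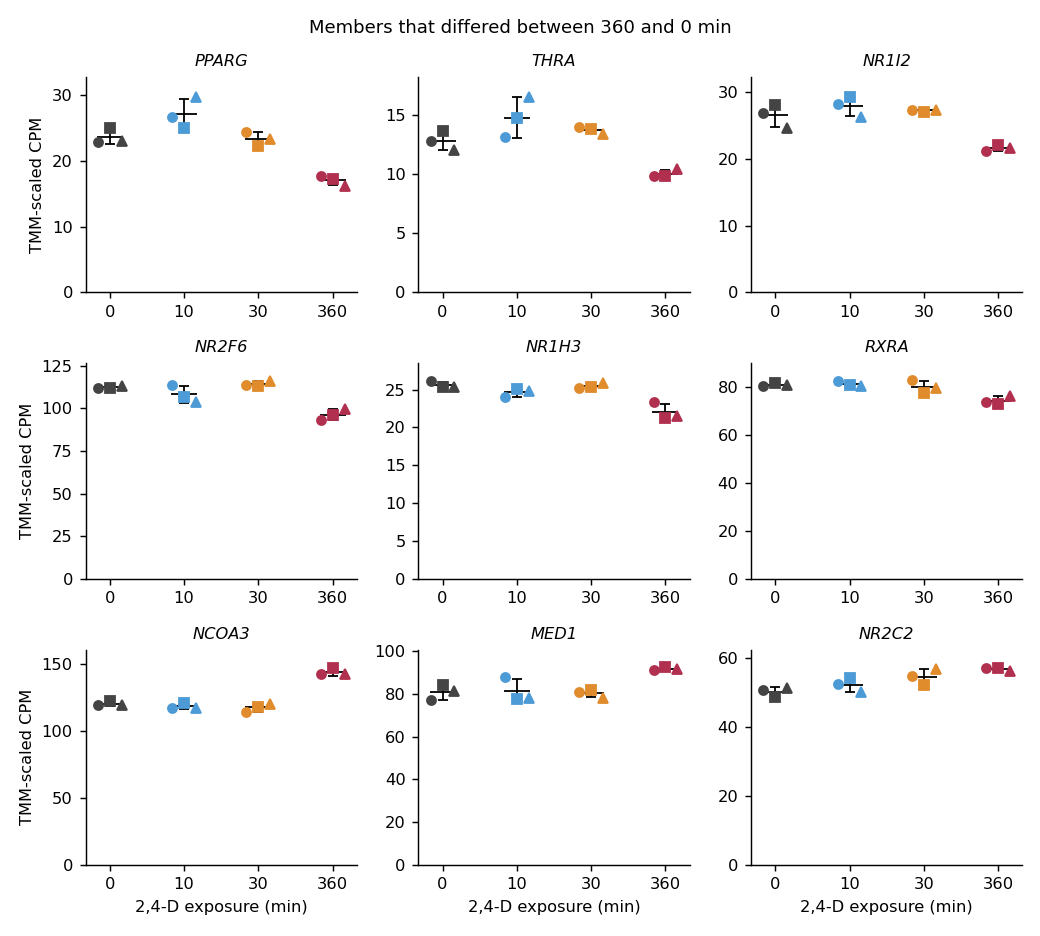
TMM-scaled CPM on linear axes from 0 for the 9 genes called at 360 against 0 min, with 1 point per library (circle, square and triangle for replicates 1, 2 and 3), a bar for the mean and whiskers for 1 SD. In 6 panels the 360 min points lie below those of 0 min, as for PPARG at 16.2 to 17.7 CPM, and in 3 they lie above, as for NCOA3 at 142 to 147 CPM.

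Of the 6 retinoid receptors, which respond to vitamin A derivatives, 5 were measured and 1 was called. RXRA (ENSG00000186350, chr9:134317098-134440585, plus strand), the RXR that most liver receptors pair with, had 80.4, 81.8 and 80.8 CPM at 0 min, 82.4, 80.8 and 80.5 CPM at 10 min, 82.7, 77.3 and 79.6 CPM at 30 min, and 73.8, 72.8 and 76.4 CPM at 360 min. The 3 last libraries were the lowest of the 12. RXRA fell by 0.12 ± 0.03 on the log2 scale (edgeR adjusted p = 0.018), the smallest called change of the list. Its call was lost when 0 min replicate 2 (edgeR adjusted p = 0.06), 360 min replicate 1 (0.065) or 360 min replicate 2 (0.073) was left out, and with no filter on low counts (0.082). RXRB had 38.3, 37.9 and 35.5 CPM at 0 min, 38.4, 36.6 and 37.6 CPM at 10 min, 37.4, 34.7 and 38.6 CPM at 30 min, and 37.7, 37.8 and 36.2 CPM at 360 min. It was the steadiest gene of the list, with a coefficient of variation of 3.27% over 12 libraries and a log2 fold change at 360 min of 0.00 ± 0.05.

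Among the retinoic acid receptors, RARA ran from 15.8 to 19.3 CPM over all libraries (log2 fold change at 360 min -0.09 ± 0.06, edgeR adjusted p = 0.39). RARG, at 0.962 to 1.93 CPM, gave -0.45 ± 0.18 at 360 min with an edgeR adjusted p of 0.11, and its libraries touched those of 0 min at 1.29 CPM. RARB, itself induced by retinoic acid in many cells, lay between 0.095 and 0.333 CPM, where a change of the size seen in RXRA was not detectable at this depth (0.10 ± 0.43).

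Of the 2 thyroid hormone receptors, 1 was lower at 360 min than at 0 and 30 min, and the other was higher than at 30 min. THRA (ENSG00000126351, chr17:40058290-40093867, plus strand) had 12.8, 13.6 and 12 CPM at 0 min, 13.1, 14.7 and 16.5 CPM at 10 min, 14, 13.8 and 13.4 CPM at 30 min, and 9.86, 9.86 and 10.4 CPM at 360 min. The 360 min libraries were below the other 9. THRA fell by 0.35 ± 0.08 on the log2 scale against 0 min (edgeR adjusted p = 0.011), a call lost without 0 min replicate 2 (0.051), and by 0.45 ± 0.08 against 30 min (edgeR adjusted p = 0.0018). THRB (ENSG00000151090, chr3:24117153-24495756, minus strand), the main form of the liver, had 20.5, 23.1 and 22.5 CPM at 0 min, 21.7, 20.5 and 21.4 CPM at 10 min, 21.6, 20.1 and 20.2 CPM at 30 min, and 24.7, 21.7 and 25.3 CPM at 360 min. Its 360 min libraries overlapped those of 0 min (0.12 ± 0.06, edgeR adjusted p = 0.24) and lay above those of 30 min, the closest pair of libraries being 21.7 and 21.6 CPM. Against 30 min THRB rose by 0.22 ± 0.06 on the log2 scale (edgeR adjusted p = 0.029). That call was lost without 30 min replicate 2 (0.089), 30 min replicate 3 (0.086), 360 min replicate 1 (0.1) or 360 min replicate 3 (0.12), and with no filter (0.083). The 3′ end of THRA overlaps exons of NR1D1, the clock receptor REV-ERB alpha, by 263 bases (3.78% of the THRA exons) on the opposite strand, and NR1D1 gave -0.29 ± 0.12 at 360 against 0 min (edgeR adjusted p = 0.11).

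The orphan receptors, for which no hormone is established or which act without one, numbered 11, of which 10 were measured, 1 rose and 1 fell. NR2F6 (ENSG00000160113, chr19:17231883-17245940, minus strand), a repressor of the COUP-TF family, had 112, 112 and 113 CPM at 0 min, 114, 107 and 104 CPM at 10 min, 114, 113 and 116 CPM at 30 min, and 93, 96.4 and 99.5 CPM at 360 min. None of the 360 min libraries reached 100 CPM, whereas each of the other 9 was above 100 CPM. NR2F6 fell by 0.22 ± 0.04 on the log2 scale (edgeR adjusted p = 0.00097). Its relatives were not called: NR2F1 had 19.4, 20.4 and 24.3 CPM at 0 min, 21.2, 22.5 and 19.5 CPM at 10 min, 20.8, 22.2 and 20.1 CPM at 30 min, and 20.2, 21.5 and 21.6 CPM at 360 min. NR2F2 had 15.9, 16.3 and 16.2 CPM at 0 min, 14.8, 14.6 and 13.2 CPM at 10 min, 16.3, 14.4 and 15.6 CPM at 30 min, and 15.2, 15 and 15.2 CPM at 360 min. Its 3 libraries of 360 min lay below those of 0 min, but with a log2 fold change of -0.09 ± 0.06 it did not pass the test (edgeR adjusted p = 0.35).

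NR2C2 (TR4, ENSG00000177463, chr3:14947584-15053600, plus strand), a testicular receptor that also binds AGGTCA repeats, had 50.6, 48.6 and 51.1 CPM at 0 min, 52.3, 54.2 and 50.1 CPM at 10 min, 54.6, 52.2 and 56.6 CPM at 30 min, and 57, 57.1 and 56.1 CPM at 360 min. The 30 min libraries already lay above those of 0 min (0.12 ± 0.04, edgeR adjusted p = 0.31), and by 360 min NR2C2 rose by 0.18 ± 0.04 on the log2 scale (edgeR adjusted p = 0.0071). It was the 1 gene of the 9 not called against 30 min (0.06 ± 0.04, edgeR adjusted p = 0.31). Its close relative NR2C1 had 36.4, 33.2 and 37.5 CPM at 0 min, 33.4, 38.4 and 36.3 CPM at 10 min, 33.8, 39 and 36.6 CPM at 30 min, and 32.8, 34.6 and 36.7 CPM at 360 min, with no separation between times. Exons of NR2C2 share 1197 bases (10.1%) with MRPS25 on the opposite strand, whose log2 fold change at 360 min was 0.03 (edgeR adjusted p = 0.8).

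The other measured orphan receptors were not called at any time. ESRRA ran from 62.4 to 72.6 CPM, with 360 min at -0.01 ± 0.04 against 0 min, and NR6A1, the germ cell nuclear factor, from 62.9 to 76.8 CPM (0.11 ± 0.05, edgeR adjusted p = 0.18). NR5A2, a receptor of bile acid and embryonic genes, had the most positive value of the list at 360 min, 0.66 ± 0.36, from levels of 0.295 to 0.951 CPM (edgeR adjusted p = 0.25).

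In RORA and HNF4G single libraries stood apart, and both were singled out after their values were seen. RORA, a receptor of clock and lipid genes, had 12.4, 12.9 and 12.7 CPM at 0 min, 14.4, 14.5 and 13.6 CPM at 10 min, 4.65, 13.3 and 12.7 CPM at 30 min, and 15.8, 16 and 16 CPM at 360 min. Replicate 1 of 30 min held 37.4% of the lowest other library. Of 13661 genes with a mean of at least 1 CPM, 2 had that library under 0.5 of every other, RORA and the antisense RNA AC009630.2. The libraries of 360 min lay above all others, but with a log2 fold change of 0.33 ± 0.26 RORA did not pass the test on all 12 libraries (edgeR adjusted p = 0.44). With only 0 and 360 min fitted the change was 0.32 (edgeR adjusted p = 0.0073), and with 30 min replicate 1 left out, an alternative chosen after seeing the data, it was 0.32 (edgeR adjusted p = 0.0024).

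HNF4G, a relative of the liver factor HNF4A, had 9.35, 9.07 and 9.24 CPM at 0 min, 9.47, 10.9 and 11.4 CPM at 10 min, 14.8, 15 and 9.2 CPM at 30 min, and 8.62, 15.3 and 8.77 CPM at 360 min. Replicates 1 and 2 of 30 min and replicate 2 of 360 min were at least 1.3 times the highest of the other 9, which ran from 8.62 to 11.4 CPM. No other gene of the 13661 had those 3 libraries over 1.2 times each of the rest. No comparison of HNF4G passed the test (0.51 at 30 min, edgeR adjusted p = 0.47, and 0.22 ± 0.21 at 360 min, edgeR adjusted p = 0.54).

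**Figure D4:**
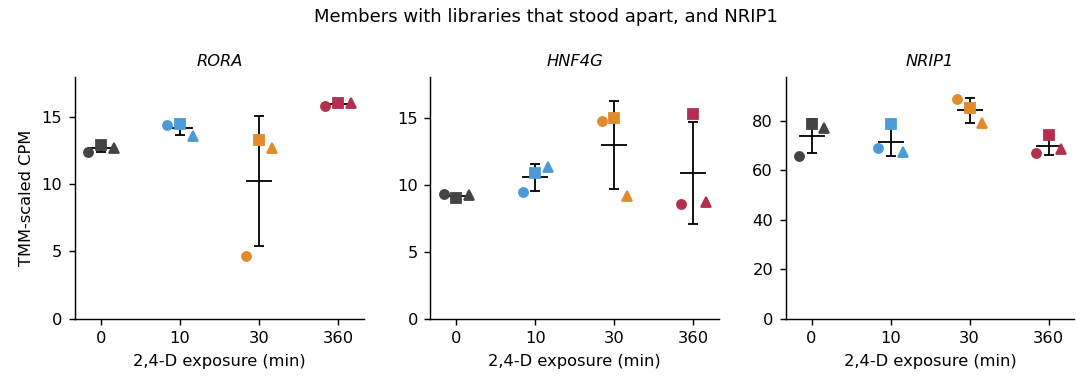
TMM-scaled CPM per library on linear axes from 0 for RORA, HNF4G and the corepressor NRIP1, with circles, squares and triangles for replicates 1, 2 and 3, a bar for the mean and whiskers for 1 SD. A single 30 min library of RORA lies at 4.65 CPM, 3 libraries of HNF4G lie at 14.8 to 15.3 CPM, and the NRIP1 libraries of 30 min lie at 78.9 to 88.7 CPM.

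Of the 5 steroid receptors only the pair below was measured, and neither was called. NR3C1, the glucocorticoid receptor, ran from 18.2 to 25 CPM, with -0.15 ± 0.08 at 360 min (edgeR adjusted p = 0.23). NR3C2, the mineralocorticoid receptor, ran from 0.948 to 1.48 CPM (-0.17 ± 0.19).

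Of the 4 coactivators, 2 rose at 360 min and none fell, where 8.89% of all tested genes were higher and 9.19% lower. NCOA3 (ENSG00000124151, chr20:47501902-47656877, plus strand), a p160 coactivator also known as SRC-3 or AIB1, had the smallest adjusted p of the list. It had 119, 122 and 119 CPM at 0 min, 117, 121 and 117 CPM at 10 min, 114, 118 and 120 CPM at 30 min, and 142, 147 and 142 CPM at 360 min. The first 9 libraries spanned 114 to 122 CPM, and the last 3 lay above them all. NCOA3 rose by 0.26 ± 0.03 on the log2 scale, from 120 to 144 CPM (edgeR adjusted p = 8.3e-05). Its exons share 96 bases (1.14%) with SULF2 on the opposite strand, which gave 0.07 ± 0.14 (edgeR adjusted p = 0.81).

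The other p160 coactivators were not called. NCOA1 (SRC-1) had 8.63, 10.5 and 9.24 CPM at 0 min, 8.31, 10.2 and 9.64 CPM at 10 min, 9.26, 9.6 and 9.06 CPM at 30 min, and 9.11, 9.57 and 9.64 CPM at 360 min (log2 fold change at 360 min 0.00 ± 0.09). NCOA2 (TIF2) had 44.9, 48.4 and 45.5 CPM at 0 min, 46.7, 52.1 and 45.6 CPM at 10 min, 44.4, 48.3 and 47.7 CPM at 30 min, and 45.5, 44 and 46.2 CPM at 360 min (-0.03 ± 0.05). Both overlapped between all times.

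MED1 (ENSG00000125686, chr17:39404285-39451286, minus strand), the Mediator subunit that liganded receptors dock on, had 77.1, 84.3 and 81.4 CPM at 0 min, 87.8, 77.7 and 78.2 CPM at 10 min, 81, 81.9 and 78.3 CPM at 30 min, and 91.1, 92.5 and 91.6 CPM at 360 min. The libraries of 360 min lay close together and above the other 9. MED1 rose by 0.18 ± 0.05 on the log2 scale (edgeR adjusted p = 0.016), a call lost without 0 min replicate 1 (0.078) or 360 min replicate 2 (0.053).

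Neither corepressor was called against 0 min. NCOR1, the platform for histone deacetylase 3, had 175, 199 and 186 CPM at 0 min, 199, 199 and 194 CPM at 10 min, 186, 184 and 184 CPM at 30 min, and 196, 190 and 198 CPM at 360 min (0.06 ± 0.04, edgeR adjusted p = 0.36). NRIP1 (RIP140, ENSG00000180530, chr21:14961235-15065936, minus strand), which represses energy metabolism genes and can itself be induced by oestrogen and retinoic acid, had 65.8, 78.5 and 77.1 CPM at 0 min, 69.1, 78.5 and 67.2 CPM at 10 min, 88.7, 85.1 and 78.9 CPM at 30 min, and 67, 74.4 and 68.5 CPM at 360 min. Its 30 min libraries were the highest of the 12, at 0.19 ± 0.07 over 0 min (edgeR adjusted p = 0.43), so the higher value at 30 min did not pass the test. Against 30 min, NRIP1 fell by 0.27 ± 0.07 by 360 min (edgeR adjusted p = 0.018), a call lost without 30 min replicate 1 (0.079), 360 min replicate 1 (0.073) or 360 min replicate 3 (0.064).

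The comparison of 360 with 30 min asks which genes differed between the last 2 times. It shares the 360 min libraries with the comparison against 0 min. The 0 min group is not 1 of the 2 groups compared. Its libraries still entered the test, through the filter, the scaling and the estimate of spread shared by all 12 libraries. Of 30 genes, 10 were called, 3 higher and 7 lower (33.3%). Over all genes 22.7% were called, 11.4% higher and 11.3% lower. In 15 of 30 the libraries did not overlap (50%, against 39.8% of all genes). PPARG fell by 0.45 ± 0.07 on the log2 scale (edgeR adjusted p = 0.00037), NR1I2 by 0.34 ± 0.05 (0.00065), NR2F6 by 0.25 ± 0.04 (0.0003) and NR1H3 by 0.21 ± 0.05 (0.0048). NCOA3 rose by 0.29 ± 0.03 (edgeR adjusted p = 2.1e-05) and MED1 by 0.19 ± 0.05 (0.01). RXRA fell by 0.10 ± 0.03 (edgeR adjusted p = 0.036), a call lost without 30 min replicates 1 (0.14) or 3 (0.073), or 360 min replicates 1 (0.11) or 2 (0.12), with no filter (0.12) and with the compared groups alone (0.071). The remaining called genes were THRA, THRB and NRIP1, given above.

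Ratios of TPM within a library describe the makeup of a family. Their size depends on the exon lengths used, but their change over time does not. They rest on the same libraries as the tests above. Each of the 8 pairs holds a gene called at 360 against 0 min, so ratios that separate these times add no independent result. With 3 libraries against 3 an exact two-sided permutation test cannot give a p under 0.1. After Benjamini-Hochberg adjustment over the 16 tests made on 8 pairs, that p was 0.145. The ratio of THRB to THRA was 1.51 at 360 min (1.4 to 1.59), 1.09 at 0 min (1.02 to 1.19), 0.913 at 10 min (0.819 to 1.05) and 0.952 at 30 min (0.922 to 0.977). By this length-scaled measure the 2 receptors were near parity at the first 3 times. In CPM, not divided by length, THRB had 22 and THRA 12.8 at 0 min. The ratios of all 3 libraries of 360 min lay above the other 9 (exact permutation p = 0.1 against 0 min).

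NCOA3 exceeded NCOA2 by a ratio of 3.1 at 0 min (3.02 to 3.16) and 3.79 at 360 min (3.67 to 3.99), and NCOA1 by 13.1 and 15.6. NR1H3 over NR1H2 was 0.709 at 0 min (0.666 to 0.756) and 0.625 at 360 min (0.606 to 0.656), so LXR beta was the more abundant form at both times. NR2C2 over NR2C1 was 0.776 and 0.903, and NR2F6 over NR2F2 16.7 and 15.3. In these 5 pairs and in THRB over THRA the libraries of 0 and 360 min did not overlap (exact permutation p = 0.1 in each). For RXRA over RXRB (0.77 and 0.706) and NR1I2 over NR1I3 (13.4 and 9.37) they did (exact permutation p = 0.2 in each). The plot of ratios shows 6 of the 8 pairs.

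**Figure D5:**
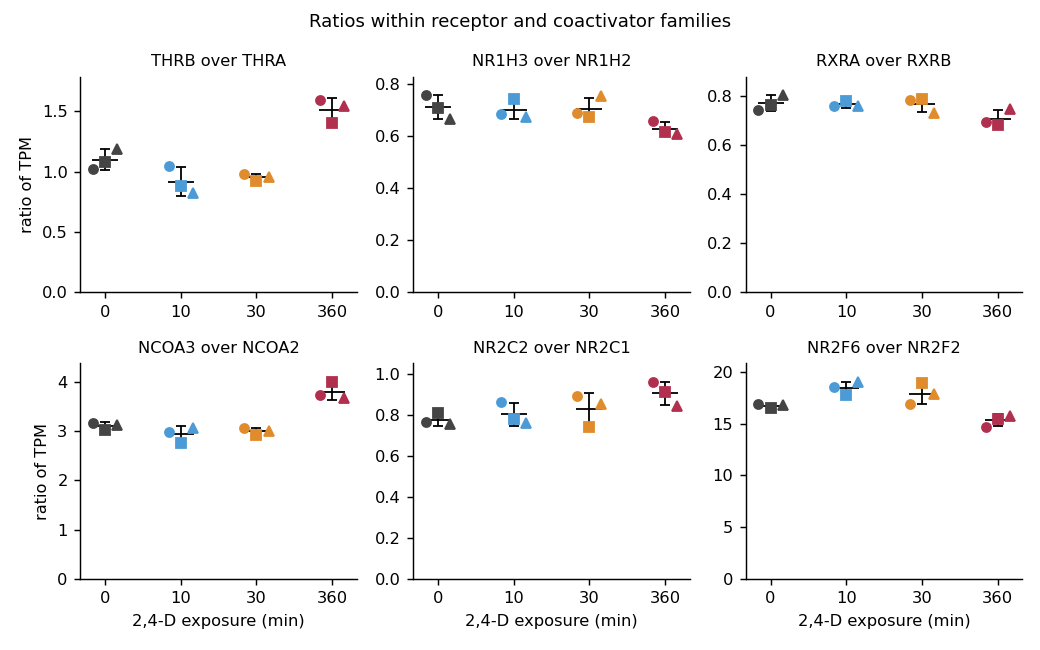
Ratio of TPM of 2 family members in each library on linear axes from 0, with circles, squares and triangles for replicates 1, 2 and 3, a bar for the mean and whiskers for 1 SD, at 0, 10, 30 and 360 min. THRB over THRA lies at 1.4 to 1.59 at 360 min and no higher than 1.19 before, and NCOA3 over NCOA2 lies at 3.67 to 3.99 at 360 min.

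Other genes of the receptor system were taken from lists chosen by function. Like the genes above, they were chosen with earlier results of these data known, so their shares called are not independent of these data. The background of all tested genes was not matched to them for level. Their counts stand beside 18.1% of all tested genes called at 360 against 0 min (8.89% higher and 9.19% lower), 0.765% at 30 min, and a median log2 fold change of 0.00 over all genes at 360 min. Of 19 remaining nuclear receptors, 12 were measured, of which 3 rose and 1 fell at 360 min (33.3%, median log2 fold change -0.11). With a term for the mitochondrial share 7 were called, 3 higher and 4 lower. NR1H4, the bile acid receptor FXR and an RXRA partner, rose from 7.94 to 11.9 CPM (0.59 ± 0.09 on the log2 scale, edgeR adjusted p = 0.00094). HNF4A, which sustains hepatocyte identity, was lower at 30 min (-0.17 ± 0.03, edgeR adjusted p = 0.038) and higher at 360 min (0.16 ± 0.03, 0.0049). The call at 30 min was lost when any 1 library of 30 min (0.061 to 0.16) or 0 min replicate 2 (0.16) or 3 (0.18) was left out. NR0B2, the repressor SHP, fell at 30 min (-0.40 ± 0.06, edgeR adjusted p = 0.01), and that call was lost without 0 min replicate 3 (0.051). NR1D2, the clock receptor REV-ERB beta, rose at 360 min (0.27 ± 0.05, edgeR adjusted p = 0.002). NR4A1, an immediate early orphan receptor, varied among the 0 min libraries (24.4 ± 7.95 CPM, SD, n = 3) and was lower at 30 min (-0.90 ± 0.17, edgeR adjusted p = 0.028) and at 360 min (-0.81 ± 0.17, 0.0054). Its call at 30 min was lost when any 1 library of 30 min (0.075 to 0.13) or 0 min replicate 2 (0.081) or 3 (0.056) was left out. With replicate 1 as the lone 0 min library NR4A1 gave -0.39 at 30 min (edgeR adjusted p = 0.34) and -0.30 at 360 min (0.15).

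Of 39 other coregulators, 38 were measured, with 12 higher and 4 lower at 360 min (42.1% against 18.1% of all genes, median 0.04). TRIM24, a coregulator of retinoid receptors, rose from 130 to 156 CPM (0.26 ± 0.05, edgeR adjusted p = 0.0021). BRD8, a partner of thyroid hormone receptors, rose (0.22 ± 0.04, 0.00085), and CARM1, the arginine methyltransferase recruited by p160 coactivators, fell (-0.18 ± 0.04, 0.0047). The total called was 10 without any 1 of 0 min replicate 1, 360 min replicate 1 and 360 min replicate 3, and 9 without 360 min replicate 2. It was 10 with no filter and 7 with replicate 1 as the lone 0 min library.

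Genes that the receptors are known to control moved in both directions. Of 20 listed targets of NR1I2 and NR1I3, 12 were measured. At 360 min 4 rose and 3 fell (58.3% against 18.1% of all genes, median 0.02), while NR1I2 itself was lower. The calls of CYP2B6 (-0.25 ± 0.07, edgeR adjusted p = 0.034) and CYP3A5 (0.34 ± 0.10, 0.033) were less stable. Both were lost with no filter (0.069 and 0.052), with the replicate number as a block (0.055 and 0.057) and with the compared groups alone (0.059 and 0.073). ALAS1, the first enzyme of haem synthesis, rose from 55.7 to 75.7 CPM (0.44 ± 0.04, edgeR adjusted p = 1.5e-05), SULT2A1, a steroid sulfotransferase, from 36 to 50 CPM (0.47 ± 0.06, 0.00031), and CYP3A7, the fetal drug-metabolising cytochrome, from 1.37 to 3.17 CPM (1.21 ± 0.17, 0.00033). ABCC3, an exporter of conjugates, fell (-0.21 ± 0.04, edgeR adjusted p = 0.0046). Reads of CYP3A7 and its near relatives CYP3A4 and CYP3A5 may be hard to assign, so its value is uncertain.

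Of 13 measured LXR targets, 1 rose and 4 fell at 360 min (38.5% against 18.1% of all genes, median -0.02), and 2 were called with replicate 1 as the lone 0 min library. SCD, the stearoyl-CoA desaturase, fell from 1972 to 1667 CPM (-0.24 ± 0.03, edgeR adjusted p = 0.00025), MYLIP, which degrades the LDL receptor, from 8.3 to 6.02 CPM (-0.46 ± 0.07, 0.00093), and FASN, the fatty acid synthase, from 1580 to 1381 CPM (-0.19 ± 0.04, 0.0071). PLTP, the phospholipid transfer protein, fell from 60 to 52.6 CPM (-0.19 ± 0.04, edgeR adjusted p = 0.0098). The 1 that rose was ABCG8 (0.21 ± 0.06, edgeR adjusted p = 0.021). Its call was lost with no filter (0.084), with the compared groups alone (0.058), and without 0 min replicate 2 (0.078) or 360 min replicates 1 (0.07) or 3 (0.086). Among those not called were ABCA1 (0.10 ± 0.03, edgeR adjusted p = 0.053), SREBF1 (0.00 ± 0.05) and APOE (-0.02 ± 0.05). Of 11 measured thyroid hormone receptor targets, 1 rose and 4 fell (45.5%, median 0.00), FASN and THRB being on this list too. The 1 that rose was ATP2A2 (0.10 ± 0.03, edgeR adjusted p = 0.048). Its call was lost in 12 of 16 alternatives, such as RLE scaling (0.061) and the compared groups alone (0.15). FURIN, a protease of secreted precursors, fell from 66 to 39.9 CPM (-0.73 ± 0.05, edgeR adjusted p = 1.5e-06), CPT1A, which carries fatty acids into mitochondria, by 0.35 ± 0.04 on the log2 scale (0.0002), and HR, a corepressor of thyroid hormone receptors, from 1.91 to 0.924 CPM (-1.06 ± 0.16, 0.00057).

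Of 15 measured glucocorticoid receptor targets, 3 rose and 6 fell at 360 min (60% against 18.1% of all genes, median -0.18), and 1 rose and 3 fell at 30 min (26.7% against 0.765%). SGK1, a kinase of ion transport and survival, rose from 51 to 76.3 CPM at 30 min (0.58 ± 0.05, edgeR adjusted p = 0.0001) and fell to 33.9 CPM at 360 min (-0.59 ± 0.05 against 0 min, 1.2e-05). ERRFI1, an inhibitor of the EGF receptor, fell at 30 min (-0.47 ± 0.06, edgeR adjusted p = 0.0023) and at 360 min (-0.52 ± 0.06, 8.3e-05), and FKBP5, a chaperone of steroid receptors, at 360 min (-0.27 ± 0.04, 0.00054). DUSP1, a phosphatase of MAP kinases, varied widely at 0 min (41.9 ± 22.6 CPM, SD, n = 3) and was lower at 30 min (-1.67 ± 0.31, edgeR adjusted p = 0.027) and at 360 min (-2.23 ± 0.32, 0.00046). With replicate 1 as the lone 0 min library the value was -0.35 at 30 min (edgeR adjusted p = 0.48) and -0.91 at 360 min. PCK1, an enzyme of glucose synthesis, was lower at 30 min (-0.36 ± 0.06, edgeR adjusted p = 0.015). The 30 min call of DUSP1 was also lost with a term for the mitochondrial share (0.075), with the compared groups alone (0.17), and without any 1 library of 30 min (0.093 to 0.13) or 0 min replicate 2 (0.11) or 3 (0.12), and that of PCK1 without replicate 2 or 3 of either time (0.075 to 0.098). The count of 4 at 30 min was 2 when replicate 2 or replicate 3 of the 0 min or of the 30 min group was left out, and 1 with replicate 1 as the lone 0 min library.

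Of 11 measured retinoic acid receptor targets, a list that holds RARB and NRIP1, 1 fell at 360 min (9.09% against 18.1% of all genes, median -0.21). This was TGM2, tissue transglutaminase, from 33.3 to 25 CPM (-0.41 ± 0.06, edgeR adjusted p = 0.00034). Of 11 measured genes of retinoid synthesis, transport and breakdown, 0 were called at 10, 30 or 360 min against 0 min by edgeR. At 10 and 30 min 0 had an unadjusted p under 0.05 and DESeq2 called 0. At 360 min 2 had one, and DESeq2, total-count scaling and the term for the mitochondrial share each called 1. Of 10 measured oestrogen receptor targets, 1 rose and 2 fell at 360 min (30%, median -0.02). IGFBP4, a binding protein of insulin-like growth factors, fell by 0.33 ± 0.04 on the log2 scale (edgeR adjusted p = 0.00016), and SIAH2, a ubiquitin ligase, rose by 0.34 ± 0.05 (0.00085). XBP1, a factor of the unfolded protein response, fell by 0.14 ± 0.03 (edgeR adjusted p = 0.0081). At 10 min, edgeR called 0 of the 122 measured genes of these 9 lists that are not among the 35, of which 21 had an unadjusted p under 0.05, and DESeq2 called 3.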

How the data were processed

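Polyadenylated RNA of 12 HepG2 libraries (4 times, 3 replicates each) was sequenced. The authors deposited raw whole-number read counts per gene, in 1 table in which every column matched 1 sample title (0 columns of no sample). HISAT2, DESeq2 and the GRCh38 build are named in the submitters' processing notes. For the counting program, its annotation and strand, nothing is given in the sources used here. Positions, exon lengths and overlaps come from GENCODE 29, which held 96.3% of the identifiers. Promoters come from RefSeq.

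The deposited counts were filtered (filterByExpr, 17779 genes kept) and tested with edgeR 4.0.16 in R 4.3.3: TMM scaling (factors 0.981 to 1.014), 1 coefficient per group, all 12 libraries, 8 residual degrees of freedom, biological coefficient of variation 9.72%. Tests were two-sided, with Benjamini-Hochberg adjustment over all tested genes, and were tested on simulated data first. Standard errors (SE) were derived from the F statistic (size of the log2 change over the root of F). CPM and TPM were computed from the counts, TPM with the summed exon length of each gene. Totals per library are given with the results.

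The genes and all lists were chosen with earlier results of these data known. Every library's value is given for each gene called in any of 4 comparisons and for its family partners, log2 fold changes for the 3 uncalled genes farthest from 0 at 360 min, and from each other list at most the 4 called genes with the smallest p at 360 min and any called at 10 or 30 min, except a result that is not reported here. For the LXR targets, ABCG8 and some uncalled genes are given as well, and ATP2A2, CYP2B6 and CYP3A5 are given from other lists. Other scalings, filters, models, DESeq2 1.42.0 and omission of each library were tried.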

Additional observations from a re-analysis of the deposited data

How the results depend on the processing

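The number of genes of the list called was 0 at 10 and at 30 min in every alternative run. At 360 min it was 9 (7 to 10 over the alternatives) against 0 min and 10 (7 to 12) against 30 min. PPARG, NR1I2, NR1H3, NR2F6 and NCOA3 kept their calls in both 360 min comparisons under every alternative run, PPARG at -0.51 to -0.43 and NCOA3 at 0.24 to 0.27 against 0 min. Of the 14 genes followed one by one (those called and the 3 uncalled ones farthest from 0), 1 changed sign: NRIP1 at 360 against 0 min went from -0.08 to 0.09 (edgeR adjusted p = 0.62) with replicate 1 as the lone 0 min library. That alternative also lost the calls of RXRA (0.18), THRA (0.089) and NR2C2 (0.11), of BRD8 (0.051), FASN (0.12), PLTP (0.18), XBP1 (0.1) and NR4A1 (0.15, from -0.81 to -0.30) at 360 min, and of DUSP1 (0.48, from -1.67 to -0.35), HNF4A (0.45), PCK1 (0.4), NR4A1 (0.34, from -0.90 to -0.39), ERRFI1 (0.078) and NR0B2 (0.054) at 30 min, and assumes that the lone library varies like the other groups.

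Counts over all genes moved more. At 10 min they were 3 in all, 9 with no filter, 7 with the compared groups alone, 8 with the lone 0 min library, 174 with DESeq2, and 2 to 26 with 1 replicate left out. At 30 min they were 136, 66 with the compared groups alone, 49 with the lone 0 min library, 271 with DESeq2, and 60 to 168 with 1 replicate left out. At 360 against 0 min they were 3215, and 1747 with the lone 0 min library.

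Same-numbered libraries of different times correlated at -0.0541 to 0.0991 and differently numbered ones at -0.115 to 0.0923. These ranges largely overlap, and whether the numbers pair the samples cannot be told from them. With the replicate number as a block, 6 genes were called at 10 min, 109 at 30 min, 3067 at 360 against 0 min and 3883 at 360 against 30 min, the list had 9 and 10 calls at the last 2, and DUSP1 at 30 min had an edgeR adjusted p of 0.057. Of the 12 libraries, 7 correlated best with their own number.

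The mitochondrial share of counts split the libraries into 7 at 3.55 to 4.39% and 5 at 2.52 to 2.74%. All 3 libraries of 10 min were on the high side, as was 0 min replicate 1, whereas 0 min replicates 2 and 3 were on the low side. With a term for this split, 9 genes of the list were called against 0 min and 12 against 30 min, and the 30 min call of NR4A1 was lost (0.051). HNF4A at 30 min was lost with no filter (0.11), and HNF4A (0.13), NR4A1 (0.16) and PCK1 (0.071) with the compared groups alone. Of the remaining receptors, 3 were called at 30 min, 1 with the compared groups alone and 0 with the lone 0 min library. Depth limits the scarce genes: for RARB, NR5A2, NR1I3 and NR3C2 the SE at 360 min was between 0.19 and 0.43.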
